A study of Mus musculus with 8 samples.

Results

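The serum amyloid and acute-phase genes described here were *Saa1*, *Saa2*, *Saa3*, *Lcn2* and *Hp*, 5 of the 32227 genes in the deposited tables, found by their symbols (ENSMUSG00000074115, ENSMUSG00000057465, ENSMUSG00000040026, ENSMUSG00000026822 and ENSMUSG00000031722). They were chosen by their levels after LPS in these same libraries, so their levels over cell classes and their LPS changes are given as a description, without a test. CD45+ cells, mostly immune cells, were isolated with magnetic beads from the brains of 8 male C57Bl/6J mice of 5 to 6 months, which had not been perfused and so still held blood, and were profiled by PIPseq, a droplet method without microfluidics that counts unique molecules (UMIs) from the ends of transcripts. All mice received a single intraperitoneal injection 24 hours earlier: 4 received sterile saline and 4 received LPS, a bacterial endotoxin, at 15000000 EU/kg. Within each arm, 2 brains were dissociated with DMSO vehicle and 2 with inhibitors of transcription and translation (actinomycin D, triptolide and anisomycin), which gave 4 groups of 2 mice with 1 library per mouse.

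The acute-phase response is the rise of a set of secreted proteins, made mainly by the liver, during infection or injury. Interleukin-1, tumor necrosis factor and interleukin-6 drive it through the transcription factors NF-kB, C/EBP and STAT3. *Saa1* and *Saa2* encode the serum amyloid A proteins that the liver releases into plasma, where they ride on lipoproteins. *Saa3* encodes a related protein that in mice is made largely outside the liver, macrophages among its sources. *Lcn2* encodes lipocalin 2, which binds bacterial siderophores and so withholds iron from bacteria, and which neutrophils store in their granules. *Hp* encodes haptoglobin, which binds free hemoglobin.

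The promoters are shown because the members are read side by side in the same cells. The 250 bases before the RefSeq start of 4 members are given 5′ to 3′ on the strand of the gene (GRCm38.p6), with the match to a C/EBP motif in capitals, and *Hp* had no entry in this table.
*Saa1*, chr7:46742981-46743230, minus strand: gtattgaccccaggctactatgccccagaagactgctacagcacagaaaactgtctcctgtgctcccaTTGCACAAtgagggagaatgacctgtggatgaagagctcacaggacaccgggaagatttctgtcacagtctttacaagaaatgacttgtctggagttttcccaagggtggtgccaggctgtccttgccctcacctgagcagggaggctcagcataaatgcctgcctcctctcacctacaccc
*Saa2*, chr7:46751583-46751832, plus strand: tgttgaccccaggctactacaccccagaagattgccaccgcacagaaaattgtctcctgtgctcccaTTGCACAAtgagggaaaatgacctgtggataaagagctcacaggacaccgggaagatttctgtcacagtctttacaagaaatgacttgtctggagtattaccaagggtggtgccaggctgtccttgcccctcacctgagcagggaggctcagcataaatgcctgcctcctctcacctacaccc
*Saa3*, chr7:46715677-46715926, minus strand: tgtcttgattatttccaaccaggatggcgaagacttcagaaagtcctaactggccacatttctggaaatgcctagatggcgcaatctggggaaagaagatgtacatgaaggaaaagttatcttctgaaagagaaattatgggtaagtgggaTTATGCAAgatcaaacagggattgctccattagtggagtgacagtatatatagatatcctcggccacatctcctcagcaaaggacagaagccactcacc
*Lcn2*, chr2:32387740-32387989, minus strand: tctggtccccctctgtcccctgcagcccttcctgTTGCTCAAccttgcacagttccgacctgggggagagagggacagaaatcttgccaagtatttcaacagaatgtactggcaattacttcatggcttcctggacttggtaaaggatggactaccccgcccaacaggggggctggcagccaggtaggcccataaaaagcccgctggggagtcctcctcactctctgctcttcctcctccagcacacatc
Each of these windows held 1 match to TTGCNNAA or to TTNNGCAA, its form on the other strand, as did 9.56% of 32851 mouse promoter windows of the same length. The match ended 175 bases before the start in *Saa1*, 176 in *Saa2*, 92 in *Saa3* and 209 in *Lcn2*. None of the 4 held a match to the STAT motif TTCNNNGAA (7.02% of windows). Nor did any hold TATAAA on the strand of the gene (7.59%, the other strand was not searched). None matched the NF-kB consensus in its strict form, which starts with GGG (3.90%, looser forms not searched). This says only that these letters are not in these windows. The windows of *Saa1* and *Saa2* were identical at 95.2% of positions. Their longest coding transcripts were identical at 94.4% of aligned bases and shared 8.46% of the 50-base stretches of *Saa2*. How reads were divided between these near copies is not known, so the values of *Saa1* and *Saa2* are uncertain against each other, whereas the transcripts of *Saa1* and *Saa3* were identical at 80.8% of aligned bases and shared 0 such stretches.

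Library totals ranged from 90352359 to 141182123 UMIs, and 12039 to 17364 cells per library lay within the limits on UMIs, genes and mitochondrial share, 119053 in all. The median cell held 2207 to 3161 UMIs in the saline libraries and 4149 to 4763 in the LPS libraries. Cells were assigned to 15 classes by fixed marker genes, and a class name here means no more than those markers. In each of the 15 classes at least 2 of its own markers stood among the 10 genes with the highest fold over the other classes. T-cells also had the NK marker *Nkg7* there, and endothelial cells had *Hbb-bs* and *Hba-a2*, hemoglobin genes of red blood cells. Oligodendrocytes and astrocytes had too few cells to be described, 1634 cells were set apart as mixed, and 9664 were not assigned. Barcodes with 1 to 99 UMIs, which hold RNA released by broken cells (free RNA), took 15.5% to 33.7% of UMIs. Between 15 and 56 cells per library had a barcode that was also a cell in another library. These cells were uneven over classes: without them 1095 of 1225 choroid plexus cells and 88934 of 89036 microglia were left. Of the *Saa3* UMIs in low-count barcodes of the saline libraries, 16.7% to 73.3% lay in barcodes that were cells of an LPS library. Levels are given in CPM, the UMIs of a gene per 1000000 UMIs of the class in that library, as mean ± SD over 4 libraries, with libraries in the order DMSO 1, DMSO 2, inhibitors 1, inhibitors 2.

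All 5 members were higher in every LPS library than in any saline library in microglia, macrophages and monocytes, where 13.2%, 13.9% and 11.2% of all genes tested did the same. *Lcn2* was separated in this way in 13 of the 13 classes with at least 10 cells in every library, *Saa3* in 12, *Hp* in 8, *Saa1* in 6 and *Saa2* in 4, against 13.2% of all genes over these classes. Since the members were chosen for these levels, nothing is read from these counts.

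After LPS, *Saa3* was highest in macrophages. It stood at 76.7, 85.2, 5.61 and 22.2 CPM in the macrophages of the saline libraries and at 141798, 143047, 150264 and 153844 CPM after LPS, a mean of 147238 ± 5772 CPM and 3105 times the saline mean. After LPS these libraries differed by less than the distance to any other class. In microglia, the resident macrophages of brain tissue, *Saa3* went from 54.3, 95.2, 5.43 and 9.06 CPM to 34045, 30728, 39673 and 31551 CPM, a mean of 33999 ± 4037 CPM and 830 times the saline mean. The size of this change varied with the setting: the fitted log2 change was 10.42, 11.44 without saline DMSO 2, 9.70 with library-size scaling, which moved the median of all microglial genes by -0.75, 11.18 with the treatment during dissociation as a term and 13.10 after free RNA was subtracted (14.39 against 12.03 in macrophages). The saline free RNA level subtracted there includes the *Saa3* UMIs in barcodes of LPS cells, and their part in these last values was not tested. The saline microglia split by the treatment during dissociation, with both DMSO libraries above both inhibitor libraries, while the LPS microglia did not. Monocytes, which circulate in blood, held 44883, 60721, 38320 and 57822 CPM of *Saa3* after LPS. Their saline values of 103, 179, 1585 and 1575 CPM were uneven because single cells carried them: 926 of the 928 UMIs in saline inhibitors 1 lay in 1 of 159 monocytes, without which the level there was 3.42 CPM, and 515 of 816 UMIs in saline inhibitors 2 lay in 1 of 157.

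**Figure D1:**
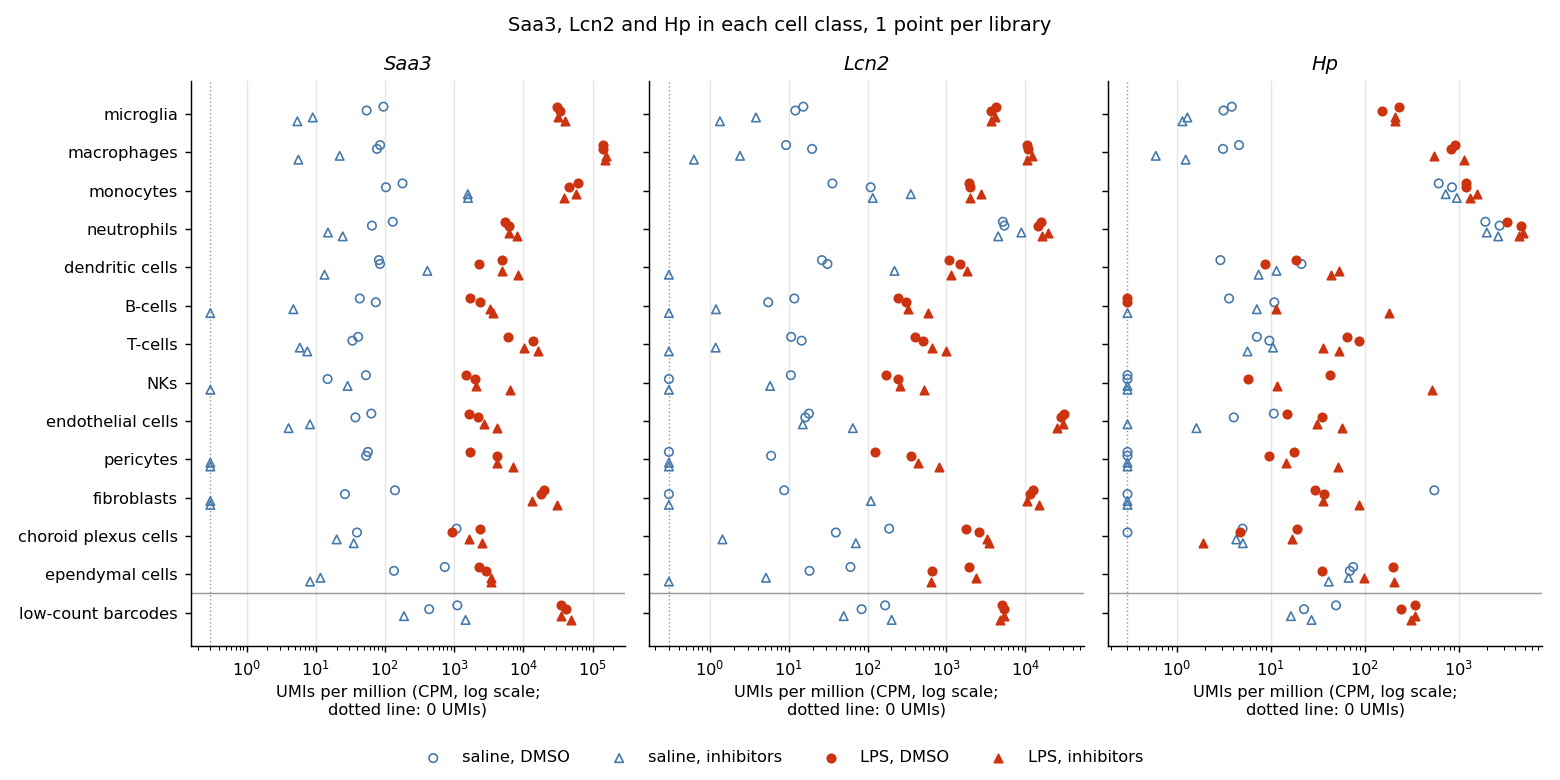
Levels of *Saa3*, *Lcn2* and *Hp* in CPM (horizontal log axes, 0 drawn at the dotted line) in 13 cell classes and, under the gray line, in low-count barcodes. Each point is 1 library. Macrophages held the most *Saa3* after LPS (141798 to 153844 CPM), endothelial cells the most *Lcn2* (25692 to 31170 CPM) and neutrophils the most *Hp* (3241 to 4782 CPM).

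The other classes were lower in *Saa3*, and several were no higher than free RNA alone would make them. Low-count barcodes of the LPS libraries held 35131 to 48000 CPM of *Saa3*, against 189 to 1463 CPM in the saline libraries. The part of a class's UMIs that came from free RNA was estimated from the markers of other classes, as the median over those markers of the level in the class over that in low-count barcodes. The same markers had assigned the cells and set mixed cells apart. This can make the estimate too low and the ratios to it too high. Ratios not far above 1 are therefore not read as a level above free RNA. In microglia this part was 4.24% to 5.09% after LPS, and the *Saa3* level was 16.5 to 20.5 times what that part would supply. The same ratio was 15.9 to 28.0 in macrophages, 6.58 to 22.1 in monocytes and 3.77 to 13.03 in fibroblasts, the collagen-making cells of the meninges (20352 ± 7235 CPM). It was 2.21 to 2.82 in T-cells (11659 ± 4548 CPM) and 1.20 to 1.65 in neutrophils (6481 ± 1082 CPM). In T-cells a few cells carried the level: the median cell held 5 to 6 *Saa3* UMIs and the top 10% of cells 76.0% to 84.8% of them, and in DMSO 2 the level was 2338 CPM, not 5936 CPM, without 1 of 71 cells.

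In 3 non-immune classes *Saa3* did not stand clear of free RNA. Endothelial cells, which line blood vessels, held 2234, 1617, 4158 and 2738 CPM of *Saa3* after LPS, 0.656 to 1.26 times what free RNA would supply. Ependymal cells, which line the ventricles, held 2987 ± 521 CPM (0.656 to 1.22 times), and choroid plexus cells, which secrete cerebrospinal fluid, held 1870 ± 745 CPM (0.330 to 0.940 times). B-cells, which make antibodies, held 2779 ± 905 CPM (1.03 to 4.39 times). A count of cells with at least 1 *Saa3* UMI does not separate these classes: 97.6% ± 2.1 of B-cells and 99.6% ± 0.1 of microglia had one after LPS, at median depths of 1672 to 2079 UMIs in B-cells and 4884 to 5610 in microglia. After each cell was thinned to 800 UMIs the shares were 80.9% ± 10.1 in B-cells and 85.8% ± 2.2 in microglia. In the order of LPS means only the steps from macrophages to monocytes and from microglia to fibroblasts were free of overlap between libraries, and the other 10 of 12 neighbors overlapped.

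*Lcn2* had another order, with endothelial cells at its head. It stood at 16.2, 18.0, 64.9 and 15.01 CPM in the endothelial cells of the saline libraries and at 28685, 31170, 25692 and 30445 CPM after LPS, a mean of 28998 ± 2438 CPM and 1017 times the saline mean. The fitted log2 change was 10.19, 10.97 without saline inhibitors 1 and 11.46 with the gate that removed cells with markers of another class above 0.25 of their own. All 4 LPS libraries lay above every library of every other class, and the level was 66.1 to 90.3 times what free RNA would supply. Neutrophils, which carry lipocalin 2 in their granules, were the only class with high *Lcn2* in saline libraries, at 5434, 5206, 4537 and 8931 CPM, with the next class, monocytes, at 35.7 to 353 CPM. After LPS they held 14372, 15839, 16144 and 19589 CPM, 2.74 times the saline mean, so the smallest of these LPS folds was in the class with the highest saline level.

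Fibroblasts and macrophages followed with 12411 ± 1871 and 10908 ± 768 CPM of *Lcn2* after LPS, and their libraries overlapped with each other. In macrophages the saline values were 19.7, 9.21, 0.623 and 2.40 CPM. Microglia held less per UMI, from 12.1, 15.2, 1.33 and 3.82 CPM with saline to 3679, 4257, 3652 and 4154 CPM with LPS, which was 14.6 to 20.01 times what free RNA would supply. Choroid plexus cells held 2582, 1751, 3443 and 3228 CPM after LPS, 1.71 to 14.9 times what free RNA would supply, and monocytes 2157 ± 387 CPM (3.39 to 4.93 times). Without the cells whose barcode was a cell in another library, the choroid plexus mean was 2810 CPM after LPS, and its saline mean moved from 74.8 to 44.5 CPM. T-cells (640 ± 263 CPM), pericytes (428 ± 279 CPM), B-cells (362 ± 151 CPM) and NKs (298 ± 152 CPM) were at the foot of the order. T-cells, B-cells and NKs were within 0.811 to 4.37 times what free RNA would supply.

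*Hp* was already present in saline libraries in neutrophils and monocytes. Neutrophils held 2717, 1918, 2624 and 1987 CPM with saline and 4612, 3241, 4348 and 4782 CPM with LPS, so each LPS library lay above each saline library by a modest margin and the mean was 1.84 times higher. Monocytes held 847, 611, 953 and 726 CPM with saline and 1182, 1184, 1304 and 1569 CPM with LPS, 1.67 times higher. Macrophages and microglia, which had little *Hp* with saline, had larger folds. Macrophages went from 3.11, 4.60, 1.25 and 0.5996 CPM to 833, 913, 1132 and 548 CPM, and microglia from 3.15, 3.85, 1.15 and 1.30 CPM to 153, 232, 209.9 and 210.5 CPM. The microglial LPS level was 12.03 to 16.0 times what free RNA would supply. Ependymal cells had *Hp* in saline libraries at 63.3 ± 15 CPM, 1.52 to 4.10 times the level in low-count barcodes, and 135 ± 83 CPM after LPS, and the groups overlapped. In endothelial cells *Hp* was 34.5 ± 17.3 CPM after LPS, and 3 of 4 libraries were above what free RNA would supply.

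**Figure D2:**
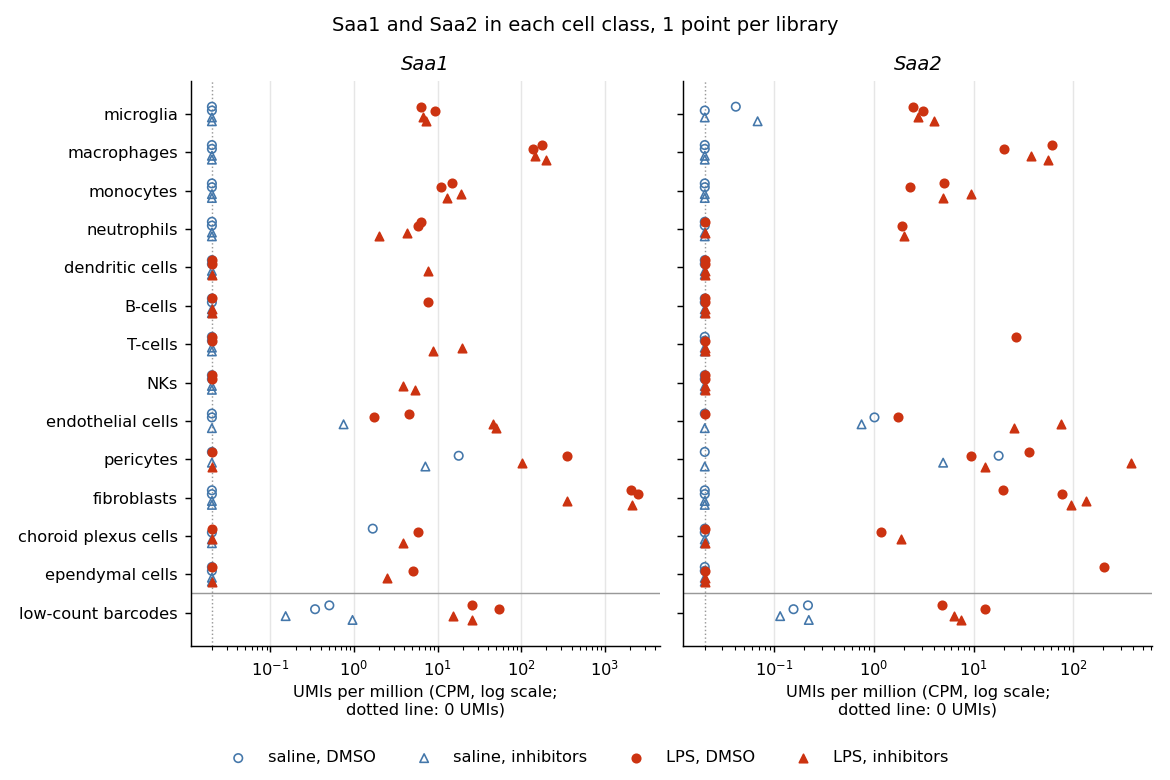
Levels of *Saa1* and *Saa2* in CPM (horizontal log axes, 0 drawn at the dotted line) by cell class, with low-count barcodes under the gray line and 1 point per library. Fibroblasts held the most *Saa1* after LPS (356 to 2502 CPM), and most classes had 0 UMIs in most saline libraries.

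The plasma-type genes *Saa1* and *Saa2* were rarer and nearly absent from saline libraries. No *Saa1* UMI was found in 44676 saline microglia, which allows up to 0.0234 CPM over the group by the limit of 3 counts that a count of 0 allows. With LPS the microglia held 9.41, 6.34, 7.27 and 6.66 CPM of *Saa1*, a mean of 7.42 ± 1.38 CPM and at least 317-fold higher than that limit. Macrophages went from 0 to 137, 176, 195 and 146 CPM of *Saa1*, at least 331-fold higher. The *Saa1* level after LPS was 3.72 to 8.55 times what free RNA would supply in microglia and 12 to 61.0 times in macrophages. Such limits reflect the error of counting alone.

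Fibroblasts carried the most *Saa1*. They went from 0 in 96 cells to 2502, 2073, 2122 and 356 CPM after LPS, a mean of 1763 ± 958 CPM, and LPS inhibitors 2 was low. These values rest on few cells: 38 of 175 fibroblasts had a *Saa1* UMI, and the highest single cell held 95 to 365 UMIs in each library. In DMSO 2 that cell held 298 of 421 UMIs, and the level was 606 CPM without it. Endothelial cells held 1.75 and 4.52 CPM of *Saa1* with DMSO and 49.9 and 46.2 CPM with inhibitors after LPS, on 73 UMIs in all. *Saa2* stood at 20.2, 61.8, 56.1 and 37.5 CPM in macrophages, 76.8, 19.7, 94.9 and 134 CPM in fibroblasts and 3.07 ± 0.67 CPM in microglia after LPS. Its highest mean was in pericytes, 110.0 ± 181 CPM on 31 UMIs, of which 26 lay in inhibitors 2, and in endothelial cells it had 74 UMIs, with 45 in 1 cell. In macrophages and fibroblasts *Saa2* had 0 UMIs in all 4 saline libraries.

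The proportions between the members differed between classes. Over the 4 LPS libraries, fibroblasts had 80.0 *Saa1* UMIs for each 1000 *Saa3* UMIs, pericytes 45.7 and endothelial cells 8.59, against 1.10 in macrophages and 0.220 in microglia, with 0.781 in low-count barcodes. In pericytes 68 of the 82 *Saa1* UMIs lay in 1 cell of LPS DMSO 1, and the value was 7.60 without that library. For each 100 *Saa1* UMIs there were 6.74 *Saa2* UMIs in fibroblasts, 25.7 in macrophages and 41.1 in microglia. The fibroblast value was 2.66 without LPS inhibitors 2, where 53 of the 67 *Saa2* UMIs lay in 1 cell. For each 100 *Saa3* UMIs there were 1097 *Lcn2* UMIs in endothelial cells, 266 in neutrophils and 156 in choroid plexus cells, against 11.5 in microglia, 7.42 in macrophages and 4.34 in monocytes. Since 1 source of free RNA keeps the counts of its genes in 1 ratio, these values can be read against the 12.7 *Lcn2* UMIs for each 100 *Saa3* UMIs in low-count barcodes.

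**Figure D3:**
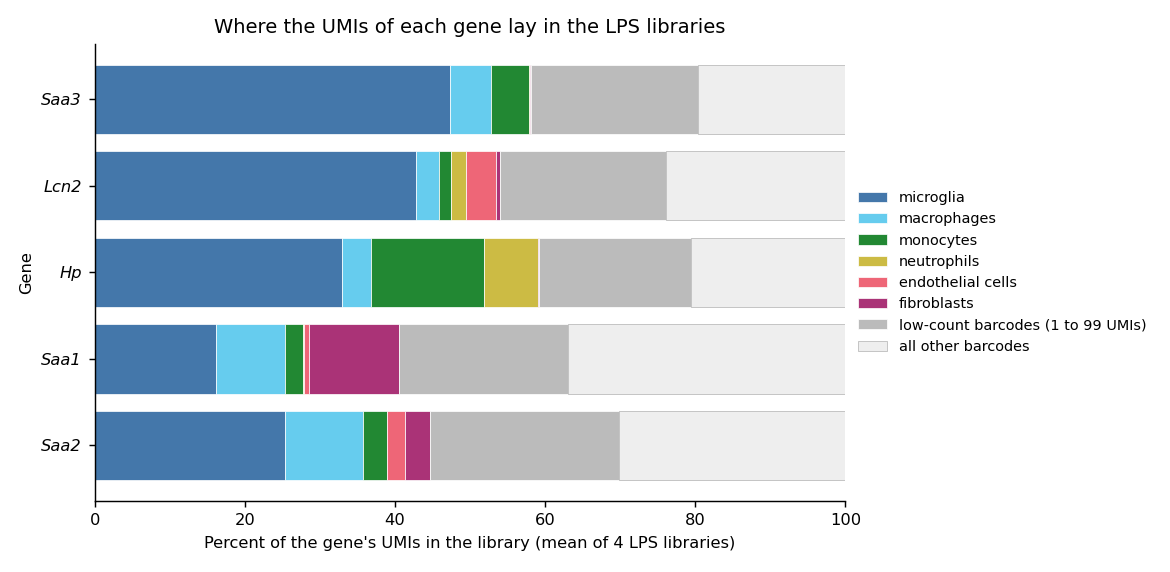
Mean percent of each gene's UMIs in the 4 LPS libraries (horizontal axis) that lay in 6 cell classes, in low-count barcodes and in all other barcodes (bars, 1 per gene, starting at 0). Microglia held 47.3% of *Saa3* UMIs and 16.1% of *Saa1* UMIs, and fibroblasts held 11.9% of *Saa1* UMIs.

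Levels per UMI and the place where the UMIs lay were different matters, because microglia made up 72.0% of the cells of the LPS libraries. In the LPS libraries microglia held 47.3% ± 4.4 of all *Saa3* UMIs, macrophages 5.49% ± 0.87, monocytes 5.05% ± 1.79 and low-count barcodes 22.2% ± 4.1. Of *Lcn2*, microglia held 42.7% ± 4.7, endothelial cells 4.09% ± 0.81, macrophages 3.14% ± 0.36 and neutrophils 1.92% ± 0.72. Of *Hp*, microglia held 32.9% ± 3.0, monocytes 15% ± 2.9 and neutrophils 7.21% ± 1.70. Of *Saa1*, microglia held 16.1% ± 6.8, fibroblasts 11.9% ± 4.5 and macrophages 9.24% ± 2.57. Larger shares of *Saa1* lay in low-count barcodes (22.6% ± 4.9) and in barcodes that were neither low-count nor cells within the limits (28.9% ± 8.5). Endothelial cells and fibroblasts lack CD45, so these shares are those of the bead-selected suspension.

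Within a class the members were unevenly spread over cells. The median LPS microglia held 24 to 43 *Saa3* UMIs, the top 10% of cells held 52.1% to 55.5% of all microglial *Saa3* UMIs, and the highest cell of each library held 4071 to 4945. The median LPS macrophage held 309 to 370, with 30.8% to 32.5% in the top 10% of cells. *Lcn2* was at a median of 39 to 73.5 UMIs in endothelial cells and of 18 to 32 in neutrophils after LPS. *Saa1* was found in 1040 of 44360 LPS microglia and *Saa2* in 562. A *Saa2* UMI was found in 5.13% of the microglia with a *Saa1* UMI (4.41% to 6.59% over libraries) and in 1.17% of those without one (1.04% to 1.36%), and in macrophages in 16.4% (11.4% to 21.0%) and 3.90% (2.74% to 4.89%). Cells with more UMIs of any kind also had more chances to hold both.

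The inhibitors were added to show which genes change during dissociation. Across both in vivo arms, 0 of the 39 member and class pairs that passed the filter on low counts differed between DMSO and inhibitor libraries (edgeR quasi-likelihood test with LPS or saline as a further term, adjusted over all genes of the class), against 0.232% of all genes over the 13 classes. At an unadjusted p under 0.05 there were 6 pairs (3.94% of all genes), and DESeq2 called 0. With no filter on low counts edgeR called 10 of 62 pairs (0.274% of all genes in that fit), among them *Saa3* in macrophages and monocytes. In the filtered edgeR fit the largest of the 5 values in microglia was for *Saa3*, higher by 1.53 ± 0.67 (SE, log2) with DMSO (adjusted p = 0.999). That value averages a saline and an LPS difference of opposite sign, with mean levels of 74.7 CPM with DMSO and 7.25 CPM with inhibitors in saline libraries and of 32387 and 35612 CPM in LPS libraries. In LPS libraries alone, *Saa3* was 34045 and 30728 CPM with DMSO and 39673 and 31551 CPM with inhibitors in microglia, and the groups overlapped. Without LPS inhibitors 1, *Saa1* in fibroblasts was called, higher by 2.61 ± 0.48 with DMSO (edgeR, adjusted p = 0.0428).

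**Figure D4:**
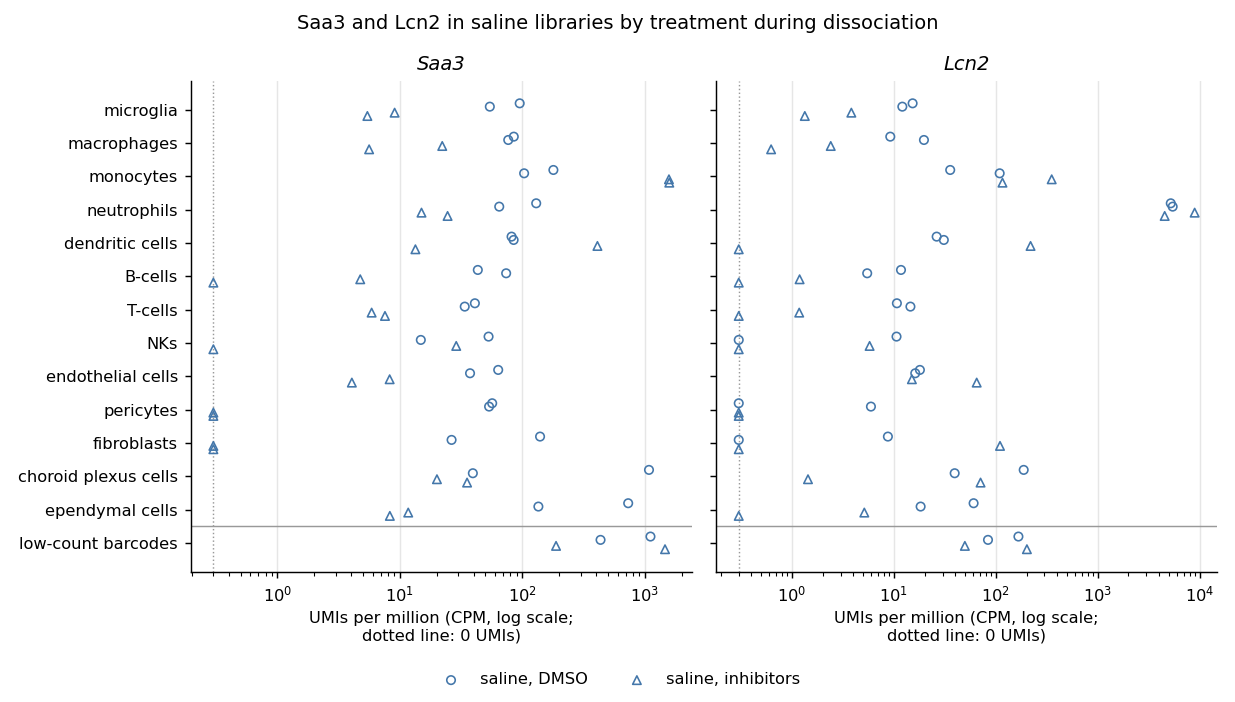
Levels of *Saa3* and *Lcn2* in CPM (horizontal log axes, 0 drawn at the dotted line) in the saline libraries by cell class, 1 point per library, with circles for DMSO, triangles for inhibitors and low-count barcodes under the gray line. In microglia both DMSO libraries (54.3 and 95.2 CPM of *Saa3*) lie above both inhibitor libraries (5.43 and 9.06 CPM).

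In the saline libraries the low levels of *Saa3* were higher in both DMSO libraries than in both inhibitor libraries in every class but monocytes, dendritic cells and NKs. Monocytes in both inhibitor libraries and dendritic cells in inhibitors 2 owed most of their saline *Saa3* UMIs to 1 cell per library. So did ependymal cells in DMSO 2, where the split was in the common direction. All classes come from the same 4 saline libraries, so they are not separate observations. The share of all genes that split in this way was not counted, so nothing is read from the number of classes. T-cells held 33.9 and 41.0 CPM with DMSO and 7.56 and 5.88 CPM with inhibitors, and endothelial cells held 37.4 and 63.5 CPM and 4.05 and 8.25 CPM. The saline level was 0.0767 to 0.725 times what free RNA would supply in T-cells, 0.0319 to 1.20 times in endothelial cells, with 1 of 4 libraries above it, and 0.0467 to 1.59 times in microglia, with 2 of 4 above it. Low-count barcodes did not split this way, at 435 and 1113 CPM with DMSO and 1463 and 189 CPM with inhibitors. These values are not a measure of the saline libraries' own free RNA alone, since 69.5%, 57.2%, 73.3% and 16.7% of their *Saa3* UMIs lay in barcodes that were cells of an LPS library, against 0.189% to 4.32% of the UMIs of all genes. High counts of immediate-early genes mark activation during dissociation. Microglia with such counts made up 44.9% and 35.8% of saline microglia with DMSO and 1.43% and 1.63% with inhibitors. Without such cells the microglial *Saa3* mean over the 4 saline libraries was 44.0 CPM, against 41.0 CPM with them. Their part in the split between DMSO and inhibitor libraries was not tested.

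Whether the LPS change of a member depended on the inhibitors was tested as an interaction, where a negative value means a smaller log2 LPS change with DMSO. Pairs with 0 saline UMIs, such as *Saa1* in microglia (SE 219, log2) and in macrophages (SE 113), could not be called. Such pairs still count among the 39. The members were chosen by levels in these same 8 libraries, and the 39 pairs repeat 5 genes over them. The counts of pairs called, here and for DMSO against inhibitors, are thus no independent test against all genes. Of the 39 pairs, 2 passed at an adjusted p under 0.05, both for *Saa3*, against 0.0152% of all genes over the 13 classes. In each of these classes *Saa3* was the 1 gene called, which is 0.0331% of genes tested in B-cells and 0.0187% in ependymal cells. In B-cells the interaction was -4.53 ± 0.67 (edgeR, adjusted p = 0.00186), with 73.8 and 43.3 CPM against 0 and 4.75 CPM in saline libraries and 2395 and 1694 CPM against 3678 and 3349 CPM in LPS libraries. In ependymal cells it was -5.75 ± 0.73 (edgeR, adjusted p = 0.000364), with 135 and 732 CPM against 8.28 and 11.7 CPM in saline libraries and 2857 and 2306 CPM against 3430 and 3356 CPM in LPS libraries. In both classes the treatments lay further apart in the saline libraries, on the log scale, than in the LPS libraries. Saline B-cells held 79 *Saa3* UMIs in 1040 cells, at 0 to 2.09 times what free RNA would supply, with 1 of 4 libraries above it. For saline ependymal cells this ratio was 0.0577 to 6.30, with 2 of 4 libraries above it. In ependymal cells 433 of the 496 *Saa3* UMIs in saline DMSO 2 lay in 1 cell, and without that library the edgeR value was -3.97 (adjusted p = 0.000605). Without saline inhibitors 2 the ependymal result was no longer called (edgeR, -6.15, adjusted p = 0.338), nor was it with the gate that removed cells with markers of another class above 0.5 of their own (-1.94, adjusted p = 0.982). The B-cell result was not called after free RNA was subtracted (edgeR, -5.70, adjusted p = 0.997) or with that gate set at 0.25 (-2.18, adjusted p = 0.962). Over all alternatives the adjusted p ranged from 2.38e-05 to 0.997 in B-cells and from 1.8e-22 to 0.982 in ependymal cells.

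In microglia the *Saa3* interaction was -3.52 ± 0.68 (edgeR, adjusted p = 0.392) and was not called. With the capture day as a replicate block it was called in microglia (-3.51, adjusted p = 0.0226) and 11 of the 39 pairs passed in all, against 0.0851% of all genes in that fit, among them *Saa3* in macrophages (-2.59, adjusted p = 0.00872), *Lcn2* in macrophages (-3.35, adjusted p = 0.0229) and *Hp* in microglia (-1.67, adjusted p = 0.0264). In monocytes, whose saline inhibitor libraries owed their *Saa3* to single cells, the sign was the other way (3.71 with the block, adjusted p = 4.36e-06). At an unadjusted p under 0.05 there were 21 pairs without the block, against 3.86% of all genes. With saline, *Lcn2* in macrophages and *Hp* in microglia each exceeded what free RNA would supply in 1 of 4 libraries. *Saa3* did so in 2 of 4 in both classes.

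The other genes of the acute-phase pathway were read from 5 lists of 89 genes that do not hold the members. The lists were chosen with earlier results of these data known, so their counts are no independent test against all genes. The filter on low counts passed a gene near 0 in 1 arm if the other arm held it, which nearly fixed its direction. Genes low in both arms were not tested. With edgeR at an adjusted p under 0.05, 43 of the 75 list genes tested in microglia were higher with LPS and 12 lower, against 30.2% and 35.6% of all genes. In macrophages 29 of 51 were higher and 8 lower (27.4% and 28.4% of all genes), in monocytes 20 and 18 of 64 (11.1% and 12.4%), in neutrophils 21 and 9 of 46 (13.1% and 11%), in endothelial cells 31 and 3 of 40 (21.9% and 22.5%) and in choroid plexus cells 15 and 1 of 25 (11.4% and 12.8%). These counts depend on the scaling in microglia, where the median log2 change of all genes was -0.19 with TMM and -0.94 with library size alone: with library size 32 list genes were higher and 30 lower in microglia, and 24 higher and 14 lower in macrophages. The genes named below did not overlap between saline and LPS libraries in CPM and so kept their direction. Their levels pool DMSO and inhibitor libraries and keep cells high in immediate-early genes, whereas the paper removed artifactually activated clusters first. In LPS libraries such cells made up 69.6% and 57.0% of microglia with DMSO and 2.55% and 1.55% with inhibitors. Without them 42 of 71 list genes tested in microglia were higher and 12 lower. The part of such cells in the levels named below was not tested.

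**Figure D5:**
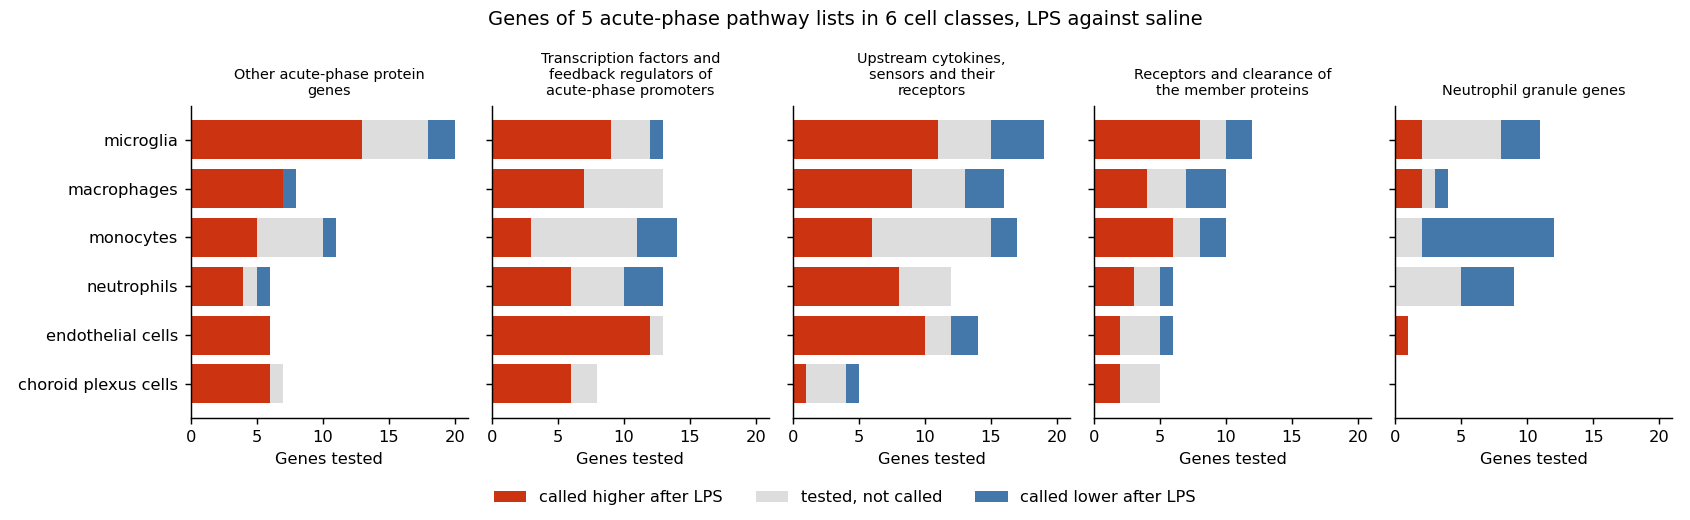
Number of genes tested (horizontal axis) in each of 5 acute-phase pathway lists and 6 cell classes, split into called higher with LPS, not called and called lower with LPS (stacked bars starting at 0; edgeR, adjusted p under 0.05, TMM scaling). Endothelial cells had 12 of 13 regulators higher and monocytes had 10 of 12 granule genes lower, 3 of 7 with the gate at 0.5.

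Of the 31 other acute-phase protein genes, 20 passed the filter in microglia. There 13 rose and 2 fell, with a median log2 change of 2.61 against -0.19 over all genes. *Il1rn*, the natural antagonist of interleukin-1, went from 0.646 ± 0.208 to 89.8 ± 25.8 CPM in microglia, and *Cp*, the copper-carrying ferroxidase ceruloplasmin, from 3.59 ± 0.93 to 347 ± 58 CPM. In endothelial cells 6 of the 31 passed the filter and 6 rose. The largest change was that of *Serpina3n*, a serine protease inhibitor, at 8.41 ± 0.48 on the log2 scale (edgeR, adjusted p = 6.62e-10). It went from 0.253 ± 0.506 to 110 ± 30 CPM, so it passed the filter through its LPS libraries. In choroid plexus cells 6 of 7 rose, and *Serpina3n* went from 10.9 ± 10.04 to 719 ± 202 CPM. Neutrophils had 4 of 6 higher, among them *Orm1* and *Orm2*, which encode the orosomucoids, at 838 ± 115 and 186 ± 71 CPM after LPS. Over all lists, 8 of the 15 higher calls in choroid plexus cells were also made after free RNA was subtracted and 2 with the gate at 0.25, under which 4 list genes were tested. In endothelial cells 14 of the 31 were also made with that gate, under which 18 list genes were tested, 2 of them in this list.

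Among the transcription factors and feedback regulators of acute-phase promoters, 12 of 13 rose in endothelial cells and 9 of 13 in microglia, where 1 fell. With the gate at 0.25, 7 of 8 were higher in endothelial cells. In endothelial cells *Cebpb*, a C/EBP factor, went from 17.5 ± 3.5 to 302 ± 164 CPM, *Socs3*, which dampens STAT3 signaling, from 12.6 ± 4.3 to 174 ± 73 CPM, and *Nfkbiz*, a nuclear co-regulator of NF-kB, from 11.2 ± 1.7 to 152 ± 36 CPM. *Socs3* rose in microglia too, by 4.51 ± 0.66 (adjusted p = 6.5e-05), and in macrophages by 4.70 ± 0.59 (adjusted p = 8.08e-06). *Cebpd*, another C/EBP factor, fell in monocytes by 1.38 on the log2 scale (adjusted p = 0.000169) and rose in choroid plexus cells by 2.44 ± 0.40 (adjusted p = 0.000342); the difference between these classes was not tested. Monocytes had 3 of 14 regulators higher and 3 lower.

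Of the upstream cytokines, sensors and receptors, 11 of 19 rose and 4 fell in microglia, 10 of 14 rose and 2 fell in endothelial cells, and 8 of 12 rose in neutrophils. *Il6*, the cytokine that drives hepatic acute-phase genes, went from 0.953 ± 1.418 to 126 ± 95 CPM in endothelial cells. *Tnf* went from 8.26 ± 6.31 to 253 ± 181 CPM in microglia, and *Cd14*, the LPS co-receptor, from 91.7 ± 66.1 to 1754 ± 988 CPM in neutrophils. *Lifr*, a receptor subunit for cytokines of the interleukin-6 family, fell in macrophages by 2.17 on the log2 scale (adjusted p = 3.62e-07).

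Among the receptors and clearance genes of the member proteins, the formyl peptide receptors, of which *Fpr2* binds serum amyloid A, stood out by size. *Fpr2* went from 0.330 ± 0.226 to 138 ± 23 CPM in microglia (9.57 ± 0.31, adjusted p = 2.1e-10) and from 8.25 ± 2.24 to 241 ± 44 CPM in macrophages. *Fpr1*, its neighbor in the family, went from 0.538 ± 0.370 to 549 ± 85 CPM in microglia. *Hmox1*, which breaks down the heme that haptoglobin helps to clear, rose in microglia, monocytes, neutrophils, endothelial cells and choroid plexus cells, by 1.38 to 3.19 on the log2 scale. *Cd36*, a scavenger receptor that also binds serum amyloid A, fell in macrophages from 470 ± 40 to 23.0 ± 1.6 CPM.

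The list of neutrophil granule genes holds genes of several granule types. Lipocalin 2 lies in the specific granules, as does lactoferrin, the product of *Ltf*. In neutrophils 0 of 9 rose and 4 fell, or 1 without the cells high in immediate-early genes, and *Ltf* went from 12495 ± 3708 to 1121 ± 293 CPM while *Lcn2* was 2.74 times higher. In monocytes 10 of 12 fell and 0 rose, *Ltf* by 6.59 on the log2 scale (adjusted p = 0.000102), but 3 of 7 fell with the gate at 0.5, and *Prtn3* and *Elane*, azurophil granule genes of early myeloid cells, stood among the 10 genes that set the monocyte class apart. Without the cells high in immediate-early genes, 13 genes of all lists were higher and 2 lower in neutrophils. That filter left 594 of 1632 neutrophils. It removed 271 of 294 in LPS DMSO 1 and 285 of 313 in LPS DMSO 2. In saline DMSO 1 it removed 32 of 39, so that library fell under the limit of 10 cells. In other classes some rose. *Mmp8*, a collagenase, and *Cybb*, a subunit of the NADPH oxidase, were the 2 of 11 higher in microglia (3.03 and 6.51 on the log2 scale), where 3 fell. After free RNA was subtracted, 4 granule genes were tested in microglia, and 0 of the 3 lower calls were made again. *Mmp8* and *Cybb* were also the 2 of 4 higher in macrophages (5.44 and 0.82), where 1 fell, and 1 of 1 rose in endothelial cells.

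Over 104 sums (13 classes in 8 libraries), the genes whose log2(CPM + 1) was most like that of a member, among 11607 genes that reached 50 CPM, were named by their Pearson correlation, with the 5 members left out of the ranking, which is a description since classes of 1 library share its depth and free RNA. *Saa3* was closest to *Marco*, a scavenger receptor (0.91), *Sod2*, the mitochondrial superoxide dismutase (0.85), and *Acod1*, which makes itaconate (0.84). Of genes other than members, *Lcn2* was closest to *Acod1* (0.78), *Marco* (0.77) and *Cxcl2* (0.76), a neutrophil chemokine. *Hp* was closest to *Gsr* (0.85), glutathione reductase, and to *S100a8* (0.80) and *Mcemp1* (0.80), both of which were used to mark neutrophils. With members left out, *Saa1* was closest to *Csf3* (0.69), *Timp1* (0.68) and *Sod2* (0.68), and *Saa2* to *Timp1* (0.66), *Csf3* (0.65) and *Steap4* (0.65). Between members the correlation was 0.82 for *Saa3* and *Lcn2*, 0.73 for *Saa1* and *Saa2*, and 0.27 for *Saa1* and *Hp*.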

How the data were processed

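Per the labels, 8 PIPseq libraries fell into 4 groups of 2 mice. The authors made the deposited counts, UMIs of each gene in each barcode as whole numbers, with PIPseeker (STAR alignment, mouse genome named GRCmm39); they hold every barcode, without normalization. The processing notes name Seurat 4, whose output was not used here. Cells with 800 to under 45000 UMIs, 250 to under 6500 genes and under 5% mitochondrial UMIs were kept; no doublet caller was run, and cells better fitted by 2 classes were set apart as mixed. Each cell went to the class whose marker profile, with 15% free RNA added, was at least 1000 times likelier than the next, with at least 2 own markers detected.

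UMIs were summed per library and class, and classes with at least 10 cells in at least 3 libraries on each side were fitted across all genes with edgeR 4.0.16 (quasi-likelihood test, filterByExpr, TMM, Benjamini-Hochberg) in R 4.3.3. DESeq2 1.42.0 was an alternative. The scripts were tested on simulated data. Replicate numbers mark the capture day in the labels and so pair the samples; deviations of same-numbered microglia correlated by 0.0894 to 0.547 between groups. The members and the lists were chosen with earlier results of these data known. From each list the text names genes among the 3 with the largest change in a class that were called and did not overlap, and for each member the 3 most correlated genes. Each library is 1 mouse, and p-values rest on the spread between libraries. For LPS against saline the main fit had no term for the treatment during dissociation or the capture day. The spread in that fit therefore mixes both with the differences between mice.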

Additional observations from a re-analysis of the deposited data

Results flagged for a closer look

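In 11 of 75 groups of 4 libraries the highest library lay far from the other 3 by Dixon's ratio at its 95% critical value; chance alone flags about 1 in 20 groups. With saline these were *Lcn2* in dendritic cells of inhibitors 2 (219 CPM, next highest 30.9 CPM, all 95 UMIs in 1 cell), *Lcn2* in endothelial cells of inhibitors 1 (64.9 CPM, next 18.0 CPM), *Saa3* in choroid plexus cells of DMSO 2 (1082 CPM, next 39.4 CPM), *Lcn2* in fibroblasts of inhibitors 2 (109.9 CPM on 25 UMIs) and *Hp* in fibroblasts of DMSO 2 (549.6 CPM, all 63 UMIs in 1 cell). With LPS they were *Lcn2* in monocytes of inhibitors 2 (2736 CPM, next 1984 CPM), *Saa3* in the 44 NKs of inhibitors 1 (6407 CPM, next 2045 CPM), *Hp* in the same NKs (513 CPM, 88 of 96 UMIs in 1 cell), *Saa2* in the 30 pericytes of inhibitors 2 (382 CPM on 26 UMIs), *Saa2* in ependymal cells of DMSO 2 (206 CPM, all 45 UMIs in 1 cell) and *Hp* in the 17 fibroblasts of inhibitors 1 (86.3 CPM on 10 UMIs).

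The LPS change of *Saa3* differed between DMSO and inhibitor libraries in B-cells (interaction -4.53, log2) and in ependymal cells (-5.75). The B-cell call was lost after free RNA was subtracted and with the gate at 0.25, and the ependymal call without saline inhibitors 2 and with the gate at 0.5. Ependymal *Saa3* after LPS was 0.656 to 1.22 times what free RNA would supply, and B-cell *Saa3* with saline was 0 to 2.09 times. Cells that no class was assigned to, which enter no comparison, held 71529 CPM of *Saa3* after LPS against 987 CPM with saline, and 5259 CPM of *Lcn2* against 133 CPM.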

How the results depend on the processing

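The library-size scaling, the gate at 0.5 of the own score and the removal of shared barcodes were chosen after seeing the data. With library size in place of TMM, 30 list genes were lower in microglia (12 with TMM) and 14 in macrophages (8 with TMM). DESeq2 moved the median of all genes in microglia by 0.12 (log2). Without cells high in immediate-early genes, which left 594 of 1632 neutrophils, 13 list genes were higher and 2 lower in that class. With the gate at 0.25, 14 list genes were higher in endothelial cells and 2 in choroid plexus cells. In choroid plexus cells 8 were higher after free RNA was subtracted and 8 with the gate at 0.5, and with that gate 8 were lower in monocytes. The 1 gene lower in choroid plexus cells became 5 with no filter on low counts, 3 without cells high in immediate-early genes, and 0 with DESeq2, with either stricter gate, at a minimum of 1500 UMIs, after free RNA was subtracted and without shared barcodes.

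Members called between DMSO and inhibitors numbered 10 of 62 pairs with no filter on low counts (0.274% of all genes in that fit). Genes of very few counts enter that fit, but not all of the 10 had few counts. *Saa3* was called in macrophages (edgeR, adjusted p = 5.92e-08), monocytes, choroid plexus cells, ependymal cells and dendritic cells. Interactions called numbered 17 of 62 with no filter (0.0834% of all genes in that fit), 11 of 39 with the replicate block (0.0851%), 6 of 39 with DESeq2 (0.0704% of genes with an adjusted p), 4 of 30 with the gate at 0.5 (0.0375%) and 0 of 11 with the gate at 0.25 (0 of all 17905 genes), against 2 of 39 (0.0152%). The interaction in dendritic cells changed sign without saline inhibitors 2, to -6.32 for *Lcn2* and -3.45 for *Saa3* (up to 2.76 and 1.51 without saline inhibitors 1), and in that library 95 of 95 and 175 of 178 UMIs of these genes lay in 1 cell. The fitted log2 LPS change was 13.10 for *Saa3* in microglia and 14.39 in macrophages after free RNA was subtracted (the saline level subtracted includes UMIs in barcodes of LPS cells), 11.46 for *Lcn2* in endothelial cells with the gate at 0.25 and 1.09 for *Lcn2* in neutrophils with the gate at 0.5. Thinned to 800 UMIs, 85.8% of LPS microglia held a *Saa3* UMI and 60.8% a *Lcn2* UMI.

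Leaving out 1 library at a time, list genes higher and lower ranged over 43 to 45 and 10 to 14 in microglia, 26 to 32 and 7 to 9 in macrophages, 16 to 25 and 15 to 17 in monocytes, 20 to 24 and 6 to 11 in neutrophils, 30 to 33 and 2 to 3 in endothelial cells, and 14 to 17 and 0 to 2 in choroid plexus cells. Members called ranged over 0 to 1 for DMSO against inhibitors and 2 to 5 for the interaction (0.172% to 0.266% and 0.00751% to 0.0684% of all genes), with 5 without saline inhibitors 2, 5 without LPS DMSO 1 and 4 without LPS DMSO 2. The log2 LPS change ranged over 10.09 to 11.44 for *Saa3* in microglia, 11.63 to 12.46 for *Saa3* in macrophages, 9.97 to 10.97 for *Lcn2* in endothelial cells and 1.29 to 1.80 for *Lcn2* in neutrophils. Counts of *Saa1* and *Saa2* were low in some classes, with 1 UMI of *Saa1* and 0 of *Saa2* in B-cells over the 4 LPS libraries. Whether depth set these counts was not tested.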
